A study of Mus musculus with 16 samples.

Results

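Of 40 genes of the cell cycle and of DNA replication, 39 were measured in the footpads of AIRmax and AIRmin mice, among 19938 genes with a probe set of their own on the array. The genes were chosen by name: 22 act in mitosis (Ccna2, Ccnb2, Cdk1, Plk1, Aurka, Aurkb, Bub1, Bub1b, Ttk, Melk, Mki67, Top2a, Birc5, Kif11, Kif20a, Kif23, Nusap1, Tpx2, Prc1, Cenpe, Cenpf and Cdc20) and 17 are counted as replication genes, with roles in licensing, DNA synthesis, the G1/S transition and its transcription (Mcm2, Mcm3, Mcm4, Mcm5, Mcm6, Mcm7, Cdc6, Cdt1, Pcna, Rrm1, Rrm2, Tyms, Ccne1, Ccne2, E2f1, Foxm1 and Mybl2). Foxm1 and Mybl2 also drive late genes of the cycle and are counted with E2f1 as transcription factors. Ccnb1 was not named by any probe set with a single gene and is not analysed here. Top2a and Pcna had more than 1 probe set and are given by their brightest on average.

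A dividing cell first licenses its replication origins, when Cdc6 and Cdt1 load the ring of Mcm helicase subunits, and E2f1 and the cyclins of the E type then drive the entry into S phase. In G2 and mitosis cyclin A2, cyclin B2 and Cdk1, with the Polo and Aurora kinases, build the spindle, and Cdc20 turns on the anaphase-promoting complex that ends it. Such genes are little expressed in resting cells, so that in a whole tissue their transcripts come mostly from the cells that cycle: granulocyte and red cell precursors in bone marrow, basal keratinocytes in skin, and activated lymphocytes.

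RNA of whole footpads was measured on 16 Affymetrix arrays (Mouse Gene 1.0 ST), with 4 groups of 4. AIRmax and AIRmin mice are outbred stocks bred in opposite directions for high and low acute inflammation, from a founder population that crossed C57BL/6J, BALB/cJ, SJL/J, A/J, CBA/J, P/J, SWR/J and DBA/2J. The groups were AIRmax control (arrays 105 to 108), AIRmax pristane (109 to 112), AIRmin control (113 to 116) and AIRmin pristane (117 to 120), each with 2 males followed by 2 females, and all labelled as 2 to 4 months old. Pristane, a mineral oil that induces arthritis, was injected intraperitoneally on a pair of occasions, and footpads were taken at day 0 in the control groups and at day 160 after the second injection in the pristane groups. Treatment and time therefore go together and cannot be told apart, and the sources do not state that control mice had received no pristane. The age label is the same for all groups despite these different days, so any difference in age at sampling goes with treatment too. The study's methods call the 4 arrays of a group biological replicates. A footpad holds skin, muscle, bone with marrow and, after pristane, infiltrating leukocytes, so fewer cells of a type and less RNA per cell cannot be told apart in these values.

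Values are log2 signals, given for each array in the order of the array numbers. The lowest signal of any of the 39 genes was 4.783 (Cenpe, array 119), above the range of Xist in males (3.448 to 4.324), a transcript absent from male cells. Differences were tested with limma, a linear model with moderated variances. To pass means an adjusted p (Benjamini-Hochberg, over all 19938 genes) under 0.05.

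The promoters of these genes carry letters known from cell cycle control, and those of the genes that followed the rest of the set most closely, among the genes with an entry in the promoter table, are shown here. The cell cycle homology region (CHR, which reads TTTGAA or else TTTAAA) and the CCAAT box serve the late genes of G2 and mitosis, and the E2F site (searched as TTCCCGC, also as TTGGCGC, also as TTCGCGC, also as TTGCCGC) the genes of the G1/S transition. Promoters of 300 bases, from 250 before to 50 after the annotated start, were taken from RefSeq (GRCm38.p6) for 32 of the 39 genes and searched on both strands. Capitals mark the 3 kinds of motif, and the sequences run 5′ to 3′ on the strand of the gene. The 4 mitotic genes shown are Ccnb2 (chr9:70421505-70421804, minus strand), Bub1b (chr2:118597961-118598260, plus strand), Top2a (chr11:99024140-99024439, minus strand) and Aurka (chr2:172370521-172370820, minus strand).
Ccnb2: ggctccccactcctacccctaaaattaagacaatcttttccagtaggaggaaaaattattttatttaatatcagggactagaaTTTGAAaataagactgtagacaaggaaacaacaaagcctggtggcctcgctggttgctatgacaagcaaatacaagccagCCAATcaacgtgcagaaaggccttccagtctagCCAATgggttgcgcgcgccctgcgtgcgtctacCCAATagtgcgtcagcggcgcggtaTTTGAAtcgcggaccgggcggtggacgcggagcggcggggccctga
Bub1b: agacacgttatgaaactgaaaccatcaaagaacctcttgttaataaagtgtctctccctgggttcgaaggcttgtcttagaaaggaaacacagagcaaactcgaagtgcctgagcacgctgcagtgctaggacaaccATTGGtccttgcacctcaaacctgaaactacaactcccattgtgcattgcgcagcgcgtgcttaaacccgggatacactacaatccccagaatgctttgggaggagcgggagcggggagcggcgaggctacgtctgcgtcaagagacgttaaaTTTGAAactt
Top2a: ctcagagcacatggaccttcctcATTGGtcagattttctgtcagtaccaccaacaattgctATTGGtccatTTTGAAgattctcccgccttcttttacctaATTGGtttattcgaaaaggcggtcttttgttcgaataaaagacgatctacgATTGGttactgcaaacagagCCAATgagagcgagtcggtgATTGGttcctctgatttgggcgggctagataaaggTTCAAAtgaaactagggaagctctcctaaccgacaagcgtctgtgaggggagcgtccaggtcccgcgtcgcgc
Aurka: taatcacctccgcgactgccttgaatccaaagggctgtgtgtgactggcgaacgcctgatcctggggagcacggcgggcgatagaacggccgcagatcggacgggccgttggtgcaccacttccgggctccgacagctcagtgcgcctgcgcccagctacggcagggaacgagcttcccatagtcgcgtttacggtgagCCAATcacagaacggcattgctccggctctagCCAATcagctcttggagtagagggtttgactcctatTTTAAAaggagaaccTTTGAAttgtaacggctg
In Ccnb2, CCAAT boxes begin 87, 54 and 21 bases before the start and a CHR 5 bases after it. Bub1b has a CHR 41 bases after the start and a CCAAT box on the opposite strand 113 bases before it.

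The 3 replication genes shown are Mcm2 (chr6:88898731-88899030, minus strand), Mcm5 (chr8:75109259-75109558, plus strand) and Mcm7 (chr5:138171834-138172133, minus strand), which code for subunits of the same helicase.
Mcm2: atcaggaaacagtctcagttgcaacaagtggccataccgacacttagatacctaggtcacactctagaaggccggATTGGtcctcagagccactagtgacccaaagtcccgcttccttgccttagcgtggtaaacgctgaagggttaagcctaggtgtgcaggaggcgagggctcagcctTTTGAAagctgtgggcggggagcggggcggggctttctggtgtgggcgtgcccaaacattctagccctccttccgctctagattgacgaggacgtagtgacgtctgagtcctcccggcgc
Mcm5: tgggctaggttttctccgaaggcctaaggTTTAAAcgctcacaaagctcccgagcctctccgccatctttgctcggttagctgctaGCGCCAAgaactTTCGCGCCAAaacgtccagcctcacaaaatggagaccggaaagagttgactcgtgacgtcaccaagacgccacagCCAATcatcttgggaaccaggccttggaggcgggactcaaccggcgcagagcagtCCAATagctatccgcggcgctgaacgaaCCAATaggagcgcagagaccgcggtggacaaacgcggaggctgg
Mcm7: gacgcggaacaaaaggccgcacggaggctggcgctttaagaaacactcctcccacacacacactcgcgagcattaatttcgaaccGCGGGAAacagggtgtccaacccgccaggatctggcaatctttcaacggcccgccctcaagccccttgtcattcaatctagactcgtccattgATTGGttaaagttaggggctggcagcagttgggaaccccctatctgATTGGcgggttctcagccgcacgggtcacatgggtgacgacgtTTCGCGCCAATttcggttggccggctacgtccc
Mcm5 holds E2F sites that begin 164, 152 and 149 bases before the start and in part overlap, and Mcm7 holds one 165 bases before the start and an overlapping pair 18 and 21 bases after it. Mcm2 has none in this window. Among the 32 genes, a CHR was found in 19 (59.4%, against 27.8% of the 27025 promoters in the table), a CCAAT box in 23 (71.9% against 37.9%), an E2F site in 10 (31.2% against 9.69%), and a CHR together with a CCAAT box in 17 (53.1% against 10.9%). The CHR was in 15 of 18 mitotic and 4 of 14 replication promoters, and the E2F site in 2 of 18 and 8 of 14. These are matches of letters and not shown to be bound in footpads. The 7 genes without an entry were Ccna2, Aurkb, Kif20a, Tpx2, Mcm4, Ccne2 and Foxm1.

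The 39 genes moved as one block from array to array. Array 108, an AIRmax control female, had the highest signal of its group for 39 of 39 genes, and array 105 was among the highest pair for 38. In AIRmax pristane footpads arrays 109 and 112 shared the highest place (16 and 23 genes), and array 111 was lowest for 36. In AIRmin control footpads array 116 was highest for 30 and array 115 lowest for 28. In AIRmin pristane footpads array 118 was highest for 36 and array 119 lowest for 34. The mean deviation of the 39 genes from their means over all arrays was 0.39, -0.19, -0.19 and 0.90 in AIRmax control, 0.71, 0.05, -0.31 and 0.75 in AIRmax pristane, -0.35, -0.46, -0.61 and -0.18 in AIRmin control, and -0.23, 0.34, -0.53 and -0.10 in AIRmin pristane footpads. The AIRmin control arrays thus lay between -0.61 and -0.18, and the AIRmax control arrays between -0.19 and 0.90.

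**Figure D1:**
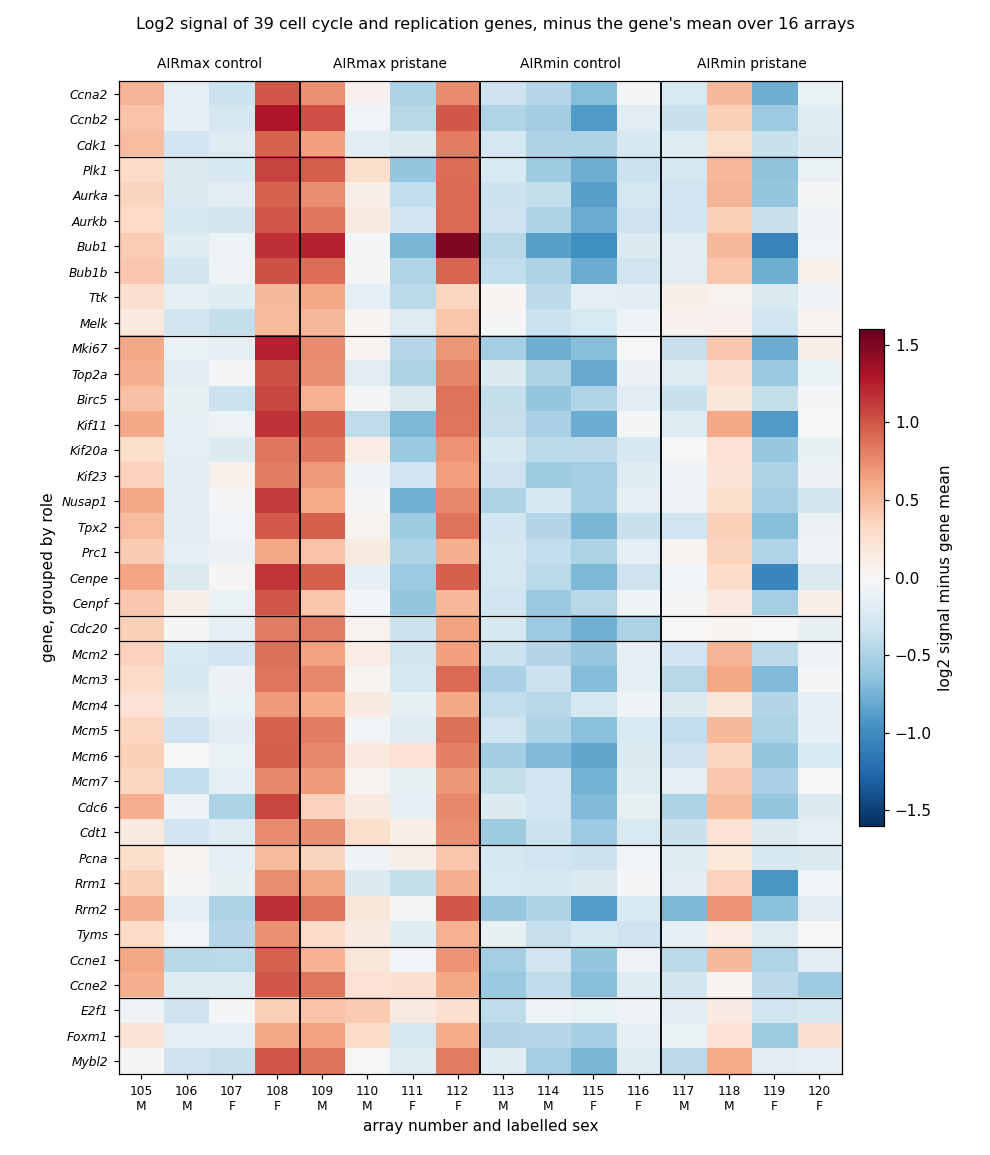
Log2 signal of each of the 39 genes on each of the 16 arrays, minus the mean of that gene over the arrays (red higher, blue lower); rows are genes grouped by role, columns are arrays with their labelled sex, M or F. Arrays 108, 109 and 112 are red, and arrays 115 and 119 blue, in nearly all rows.

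Mki67, whose protein coats mitotic chromosomes and is the usual marker of cycling cells, had log2 signals of 9.14, 8.43, 8.38 and 9.76 in AIRmax control, 9.29, 8.57, 8.08 and 9.24 in AIRmax pristane, 7.99, 7.75, 7.85 and 8.54 in AIRmin control and 8.16, 8.96, 7.73 and 8.64 in AIRmin pristane footpads. The highest arrays were 108, 109 and 112, all from AIRmax mice, and the 4 groups overlapped. The group means were 8.93 ± 0.66, 8.80 ± 0.58, 8.03 ± 0.35 and 8.38 ± 0.54 (SD, n = 4 arrays). Bub1, a kinase of the spindle checkpoint, had 6.60, 6.01, 6.12 and 7.37 in AIRmax control, 7.43, 6.18, 5.47 and 7.69 in AIRmax pristane, 5.76, 5.33, 5.22 and 5.97 in AIRmin control and 6.02, 6.72, 5.12 and 6.15 in AIRmin pristane footpads. It reached its extremes, 7.69 and 5.12, in the pristane groups of the 2 lines. Kif11, the motor that pushes spindle poles apart, had 7.95, 7.21, 7.26 and 8.49 in AIRmax control, 8.29, 6.94, 6.63 and 8.20 in AIRmax pristane, 6.98, 6.82, 6.54 and 7.31 in AIRmin control and 7.14, 7.95, 6.43 and 7.35 in AIRmin pristane footpads. Array 119 was its lowest and array 108 its highest.

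Cenpe, a kinetochore motor, had log2 signals of 6.45, 5.59, 5.84 and 6.97 in AIRmax control, 6.77, 5.69, 5.24 and 6.78 in AIRmax pristane, 5.55, 5.39, 5.10 and 5.50 in AIRmin control and 5.78, 6.12, 4.78 and 5.60 in AIRmin pristane footpads. Cenpf, a kinetochore and nuclear matrix protein, had 6.93, 6.58, 6.39 and 7.49 in AIRmax control, 6.93, 6.45, 5.87 and 7.02 in AIRmax pristane, 6.17, 5.90, 6.05 and 6.43 in AIRmin control and 6.48, 6.65, 5.95 and 6.59 in AIRmin pristane footpads. Nusap1, which bundles spindle microtubules, had 7.37, 6.58, 6.72 and 7.88 in AIRmax control, 7.36, 6.74, 5.99 and 7.53 in AIRmax pristane, 6.27, 6.48, 6.23 and 6.61 in AIRmin control and 6.68, 7.04, 6.23 and 6.46 in AIRmin pristane footpads. For all 3 genes array 108 was the highest and array 111 the lowest of the AIRmax arrays, and the AIRmax groups overlapped. Cdc20 had 7.64, 7.24, 7.10 and 8.08 in AIRmax control, 8.10, 7.32, 6.92 and 7.91 in AIRmax pristane, 7.003, 6.68, 6.49 and 6.76 in AIRmin control and 7.27, 7.30, 7.26 and 7.15 in AIRmin pristane footpads. Its 4 AIRmin pristane arrays lay between 7.15 and 7.30, above all 4 AIRmin control arrays. Melk, a kinase of embryonic and cycling cells, had 6.58, 6.12, 6.05 and 6.93 in AIRmax control, 6.94, 6.46, 6.22 and 6.87 in AIRmax pristane, 6.44, 6.08, 6.18 and 6.36 in AIRmin control and 6.49, 6.49, 6.12 and 6.48 in AIRmin pristane footpads, with all 4 groups overlapping.

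Among the replication genes, Mcm6 had log2 signals of 8.50, 8.11, 8.01 and 9.07 in AIRmax control, 8.89, 8.28, 8.34 and 8.92 in AIRmax pristane, 7.55, 7.40, 7.29 and 7.88 in AIRmin control and 7.79, 8.46, 7.49 and 7.87 in AIRmin pristane footpads. The lowest AIRmax control array (8.01) stood above the highest AIRmin control array (7.88). Cdt1 had 7.09, 6.64, 6.74 and 7.70 in AIRmax control, 7.69, 7.22, 7.03 and 7.69 in AIRmax pristane, 6.37, 6.60, 6.37 and 6.70 in AIRmin control and 6.59, 7.17, 6.73 and 6.80 in AIRmin pristane footpads, and here 1 AIRmin array of each group reached into the AIRmax range. Pcna, the sliding clamp of the DNA polymerases, had 9.71, 9.47, 9.28 and 9.94 in AIRmax control, 9.79, 9.38, 9.53 and 9.88 in AIRmax pristane, 9.15, 9.12, 9.09 and 9.39 in AIRmin control and 9.23, 9.60, 9.18 and 9.21 in AIRmin pristane footpads. Array 118 was the highest AIRmin array, above 4 of the 8 AIRmax arrays.

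Rrm1 and Rrm2 are the subunits of ribonucleotide reductase, which makes the deoxynucleotides for DNA. Rrm1 had log2 signals of 9.45, 9.04, 8.95 and 9.81 in AIRmax control, 9.68, 8.86, 8.69 and 9.65 in AIRmax pristane, 8.83, 8.79, 8.85 and 9.04 in AIRmin control and 8.89, 9.44, 8.14 and 9.03 in AIRmin pristane footpads, and Rrm2 had 8.76, 8.03, 7.70 and 9.36 in AIRmax control, 9.04, 8.38, 8.17 and 9.19 in AIRmax pristane, 7.59, 7.70, 7.30 and 7.95 in AIRmin control and 7.47, 8.91, 7.54 and 8.02 in AIRmin pristane footpads. For both, arrays 118 and 116 were the highest of their AIRmin groups. Ccne2, a cyclin of the G1/S transition, had 6.08, 5.31, 5.31 and 6.50 in AIRmax control, 6.36, 5.74, 5.78 and 6.12 in AIRmax pristane, 4.92, 5.11, 4.82 and 5.30 in AIRmin control and 5.22, 5.55, 5.09 and 4.92 in AIRmin pristane footpads. All 4 AIRmax pristane arrays lay above all 4 AIRmin pristane arrays, and the lowest AIRmax control array (5.31) stood just above the highest AIRmin control array (5.30). E2f1, the transcription factor that starts the S phase program, had 6.17, 5.92, 6.23 and 6.63 in AIRmax control, 6.71, 6.67, 6.39 and 6.51 in AIRmax pristane, 5.84, 6.18, 6.14 and 6.19 in AIRmin control and 6.08, 6.38, 5.93 and 5.99 in AIRmin pristane footpads. Its AIRmax pristane arrays also lay above all AIRmin pristane arrays, the nearest being at 6.39 and 6.38.

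The other 24 genes are given by their group means (± SD, n = 4 arrays). Ccnb2, a cyclin of the B type, averaged 8.24 ± 0.72 in AIRmax control, 8.30 ± 0.74 in AIRmax pristane, 7.38 ± 0.30 in AIRmin control and 7.73 ± 0.41 in AIRmin pristane footpads. Ccna2, the cyclin of S phase and of entry into mitosis, averaged 8.53 ± 0.62 in AIRmax control, 8.53 ± 0.60 in AIRmax pristane, 7.89 ± 0.27 in AIRmin control and 8.12 ± 0.53 in AIRmin pristane footpads. Cdk1, the kinase that both cyclins turn on, averaged 7.96 ± 0.60 in AIRmax control, 7.99 ± 0.55 in AIRmax pristane, 7.35 ± 0.13 in AIRmin control and 7.60 ± 0.28 in AIRmin pristane footpads. For these 3 genes the SD in each AIRmax group exceeded that in the AIRmin group of the same treatment.

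Plk1, a kinase of spindle and centrosome, averaged 7.82 ± 0.63 in AIRmax control, 7.98 ± 0.73 in AIRmax pristane, 7.12 ± 0.24 in AIRmin control and 7.48 ± 0.49 in AIRmin pristane footpads. Aurka, the Aurora kinase of the spindle poles, averaged 7.12 ± 0.54 in AIRmax control, 7.23 ± 0.60 in AIRmax pristane, 6.43 ± 0.27 in AIRmin control and 6.79 ± 0.50 in AIRmin pristane footpads. Aurkb, the Aurora kinase of the centromere, averaged 7.89 ± 0.61 in AIRmax control, 8.10 ± 0.58 in AIRmax pristane, 7.22 ± 0.22 in AIRmin control and 7.62 ± 0.34 in AIRmin pristane footpads. Both had their highest mean in AIRmax pristane and their lowest in AIRmin control footpads. Bub1b averaged 7.63 ± 0.58 in AIRmax control, 7.70 ± 0.69 in AIRmax pristane, 6.87 ± 0.21 in AIRmin control and 7.25 ± 0.52 in AIRmin pristane footpads. Ttk averaged 6.05 ± 0.34 in AIRmax control, 6.03 ± 0.47 in AIRmax pristane, 5.76 ± 0.18 in AIRmin control and 5.90 ± 0.14 in AIRmin pristane footpads. Both act in the spindle checkpoint with Bub1, and the groups stood closer together for Ttk than for Bub1 or Bub1b.

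Top2a, which untangles sister chromosomes, averaged 8.96 ± 0.55 in AIRmax control, 8.82 ± 0.65 in AIRmax pristane, 8.20 ± 0.31 in AIRmin control and 8.45 ± 0.36 in AIRmin pristane footpads. Birc5 (survivin), a partner of Aurkb, averaged 6.57 ± 0.64 in AIRmax control, 6.59 ± 0.51 in AIRmax pristane, 5.89 ± 0.19 in AIRmin control and 6.16 ± 0.27 in AIRmin pristane footpads. Tpx2, which activates Aurka on the spindle, averaged 7.46 ± 0.53 in AIRmax control, 7.47 ± 0.72 in AIRmax pristane, 6.68 ± 0.19 in AIRmin control and 6.97 ± 0.44 in AIRmin pristane footpads. AIRmin control footpads had the lowest mean for each. Kif20a averaged 6.71 ± 0.50 in AIRmax control, 6.79 ± 0.66 in AIRmax pristane, 6.18 ± 0.09 in AIRmin control and 6.40 ± 0.35 in AIRmin pristane footpads. Kif23 averaged 7.71 ± 0.42 in AIRmax control, 7.67 ± 0.51 in AIRmax pristane, 7.02 ± 0.18 in AIRmin control and 7.32 ± 0.29 in AIRmin pristane footpads. Prc1, which bundles the microtubules of the midzone where both kinesins work, averaged 7.63 ± 0.38 in AIRmax control, 7.61 ± 0.48 in AIRmax pristane, 7.11 ± 0.16 in AIRmin control and 7.40 ± 0.35 in AIRmin pristane footpads. These 3 genes of the central spindle had their lowest means in AIRmin control footpads too.

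Of the helicase subunits, Mcm2 averaged 8.05 ± 0.56 in AIRmax control, 8.16 ± 0.46 in AIRmax pristane, 7.49 ± 0.20 in AIRmin control and 7.81 ± 0.43 in AIRmin pristane footpads. Mcm3 averaged 7.73 ± 0.49 in AIRmax control, 7.89 ± 0.56 in AIRmax pristane, 7.10 ± 0.24 in AIRmin control and 7.39 ± 0.58 in AIRmin pristane footpads. Mcm4 averaged 7.52 ± 0.40 in AIRmax control, 7.67 ± 0.36 in AIRmax pristane, 7.06 ± 0.17 in AIRmin control and 7.20 ± 0.27 in AIRmin pristane footpads. All had higher pristane than control means in both lines, as had the following. Mcm5 averaged 7.83 ± 0.57 in AIRmax control, 7.99 ± 0.57 in AIRmax pristane, 7.20 ± 0.19 in AIRmin control and 7.51 ± 0.46 in AIRmin pristane footpads. Mcm7 averaged 8.18 ± 0.52 in AIRmax control, 8.36 ± 0.42 in AIRmax pristane, 7.63 ± 0.24 in AIRmin control and 7.98 ± 0.39 in AIRmin pristane footpads. Cdc6, which loads them, averaged 6.93 ± 0.69 in AIRmax control, 6.94 ± 0.39 in AIRmax pristane, 6.32 ± 0.26 in AIRmin control and 6.45 ± 0.51 in AIRmin pristane footpads. None of these differences between pristane and control passed.

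Tyms, which makes thymidylate, averaged 7.22 ± 0.51 in AIRmax control, 7.29 ± 0.31 in AIRmax pristane, 6.81 ± 0.11 in AIRmin control and 7.03 ± 0.14 in AIRmin pristane footpads. Ccne1, the other cyclin of the E type, averaged 6.84 ± 0.71 in AIRmax control, 7.02 ± 0.35 in AIRmax pristane, 6.28 ± 0.24 in AIRmin control and 6.53 ± 0.46 in AIRmin pristane footpads. Foxm1 and Mybl2 are transcription factors of the late cell cycle genes. Foxm1 averaged 6.25 ± 0.37 in AIRmax control, 6.44 ± 0.42 in AIRmax pristane, 5.73 ± 0.18 in AIRmin control and 6.07 ± 0.38 in AIRmin pristane footpads, and Mybl2 averaged 6.87 ± 0.63 in AIRmax control, 7.18 ± 0.55 in AIRmax pristane, 6.38 ± 0.26 in AIRmin control and 6.77 ± 0.44 in AIRmin pristane footpads. The order of the 4 group means, AIRmax pristane first and AIRmin control last, was the same in all 4 genes.

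**Figure D2:**
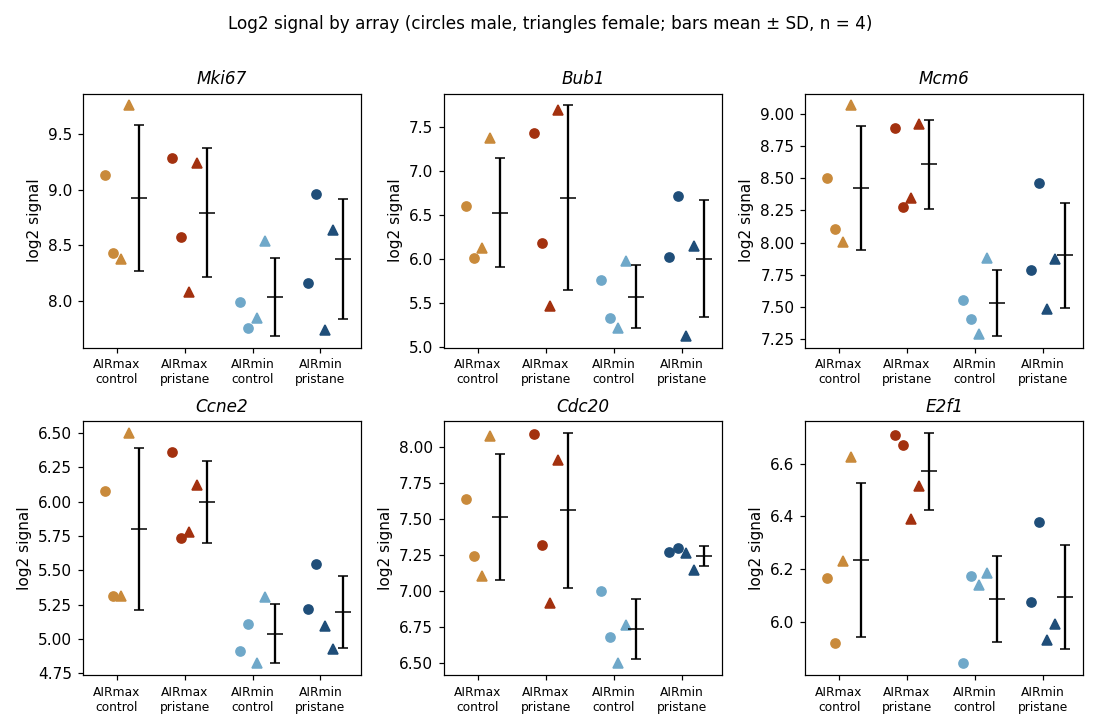
Log2 signal (vertical axis) of 6 of the genes on the 16 arrays, by group; circles are males and triangles females, and the bars give the mean ± SD (n = 4 arrays). Ccne2 and E2f1 separate the lines in pristane footpads, Bub1, Mcm6, Ccne2 and Cdc20 separate them in control footpads, and Cdc20 separates the AIRmin groups.

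The first comparison asked whether the lines differed in control footpads, at day 0. In control footpads 39 of 39 genes had the higher mean in AIRmax mice (43.2% of all genes), by 0.15 to 0.95 on the log2 scale, with a median of 0.64 (all genes -0.03). SAM called 280 of 19938 genes, none of them among the 39. None of the 39 passed in limma, where 16 of 19938 genes did (0.0802%), and the smallest adjusted p was 0.185 (Mcm6). At an unadjusted p under 0.05 there were 32 (82.1%, against 8.38% of all genes in this direction). The largest differences were those of Bub1, 0.95 (SE 0.29, adjusted p = 0.212), Mki67, 0.89 (SE 0.31, adjusted p = 0.227), and Mcm6, 0.89 (SE 0.23, adjusted p = 0.185). The smallest were those of E2f1, 0.15 (SE 0.15, adjusted p = 0.613), and Melk, 0.15 (SE 0.19, adjusted p = 0.691).

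The groups did not overlap for 11 of the 39 genes (28.2%, against 5.39% of all genes with AIRmax higher). Besides Bub1, Mcm6 and Ccne2 (difference 0.76) they were the Aurora kinases Aurka (0.69) and Aurkb (0.67), the checkpoint kinase Bub1b (0.77), the kinesins Kif20a (0.53), Kif23 (0.68) and Cenpe (0.83), the spindle factor Tpx2 (0.78) and Cdc20 (0.78). By role, the median difference was 0.64 for the mitotic cyclins and Cdk1 (3 genes), 0.69 for the mitotic kinases (7), 0.74 for chromosome and spindle proteins (11), 0.59 for origin licensing factors (8), 0.42 for DNA synthesis and nucleotide supply (4), 0.66 for the G1/S cyclins (2) and 0.48 for the transcription factors (3). Without array 108 the median over the 39 genes was 0.40, with 38 of them higher in AIRmax. Without arrays 108, 109, 112 and 118 together, which for control footpads removes array 108 alone, these values were the same. Because the genes vary together, these counts do not stand for 39 separate observations.

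In pristane footpads 39 of 39 genes again had the higher mean in AIRmax (49.1% of all genes), by 0.14 to 0.80, with a median of 0.42 (all genes -0.0051). None passed in limma, where 271 genes did (1.36%). SAM called Ccne2 and E2f1, among 1016 of 19938 genes that it called. At an unadjusted p under 0.05 there were 6 (15.4%, against 8.77% of all genes in this direction), which were Ccne2, E2f1, Cdt1, Mcm6, Mcm4 and Pcna. All 6 act in licensing, synthesis or the G1/S transition, and none of the 22 mitotic genes was among them. In size of difference the roles overlapped, with medians of 0.32 to 0.45 in the mitotic and 0.34 to 0.65 in the replication roles. The 6 genes had pooled within-group SDs of 0.208 (E2f1) to 0.382 (Mcm6), below the median of the 39 (0.451). Whether mitotic and replication genes differed was not tested.

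Ccne2 differed by 0.80 (SE 0.18, adjusted p = 0.0661) and E2f1 by 0.48 (SE 0.13, adjusted p = 0.0957), and these were the 2 genes whose groups did not overlap (5.13%, against 5.04% of all genes with AIRmax higher). Without array 110 or without array 118, Ccne2 passed in limma (adjusted p = 0.0499 and 0.04998), where 520 and 261 genes did. Rrm2 differed by 0.71 (SE 0.34, adjusted p = 0.306) and Mcm6 by 0.71 (SE 0.23, adjusted p = 0.147). The smallest differences were those of Ttk, a checkpoint kinase (0.14, SE 0.21), and Cenpf (0.15, SE 0.26). By role, the medians were 0.42 for the mitotic cyclins and Cdk1, 0.45 for the mitotic kinases, 0.37 for chromosome and spindle proteins, 0.49 for origin licensing factors, 0.34 for DNA synthesis and nucleotide supply, 0.65 for the G1/S cyclins and 0.41 for the transcription factors. Over all 39 genes the median was 0.26 without array 112, 0.61 without array 111, and 0.15 without arrays 109, 112 and 118.

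A difference of the lines averaged over both treatments was added after the values had been seen, with all 16 arrays in 1 fit. It called 4 of the 39 genes, all higher in AIRmax (10.3%, against 9.46% of all genes called and 4.64% called higher). They were Ccne2, 0.78 (SE 0.17, adjusted p = 0.0143), Mcm6, 0.80 (SE 0.17, adjusted p = 0.0148), Cdt1, 0.56 (SE 0.15, adjusted p = 0.0351), and Pcna, 0.37 (SE 0.11, adjusted p = 0.0402). No gene of the 39 was without overlap over the 8 arrays of each line (0.747% of all genes). All 39 differences were above 0 (45.4% of all genes). Leaving out 1 array gave 25 (array 111), 12 (118), 8 (106) 7 (110), 6 (107) or 4 (116), and 2 for any one of 105, 108, 109, 112, 113, 114, 115, 117, 119 or 120. Without arrays 108, 109, 112 and 118 together it was 2, Ccne2 and Mcm6, and the median difference 0.27 in place of 0.55. Of the mitotic genes, which did not pass, Bub1 had 0.82 (SE 0.32, adjusted p = 0.102), Mki67 0.66 (SE 0.24, adjusted p = 0.0911) and Melk 0.19 (SE 0.14, adjusted p = 0.374).

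**Figure D3:**
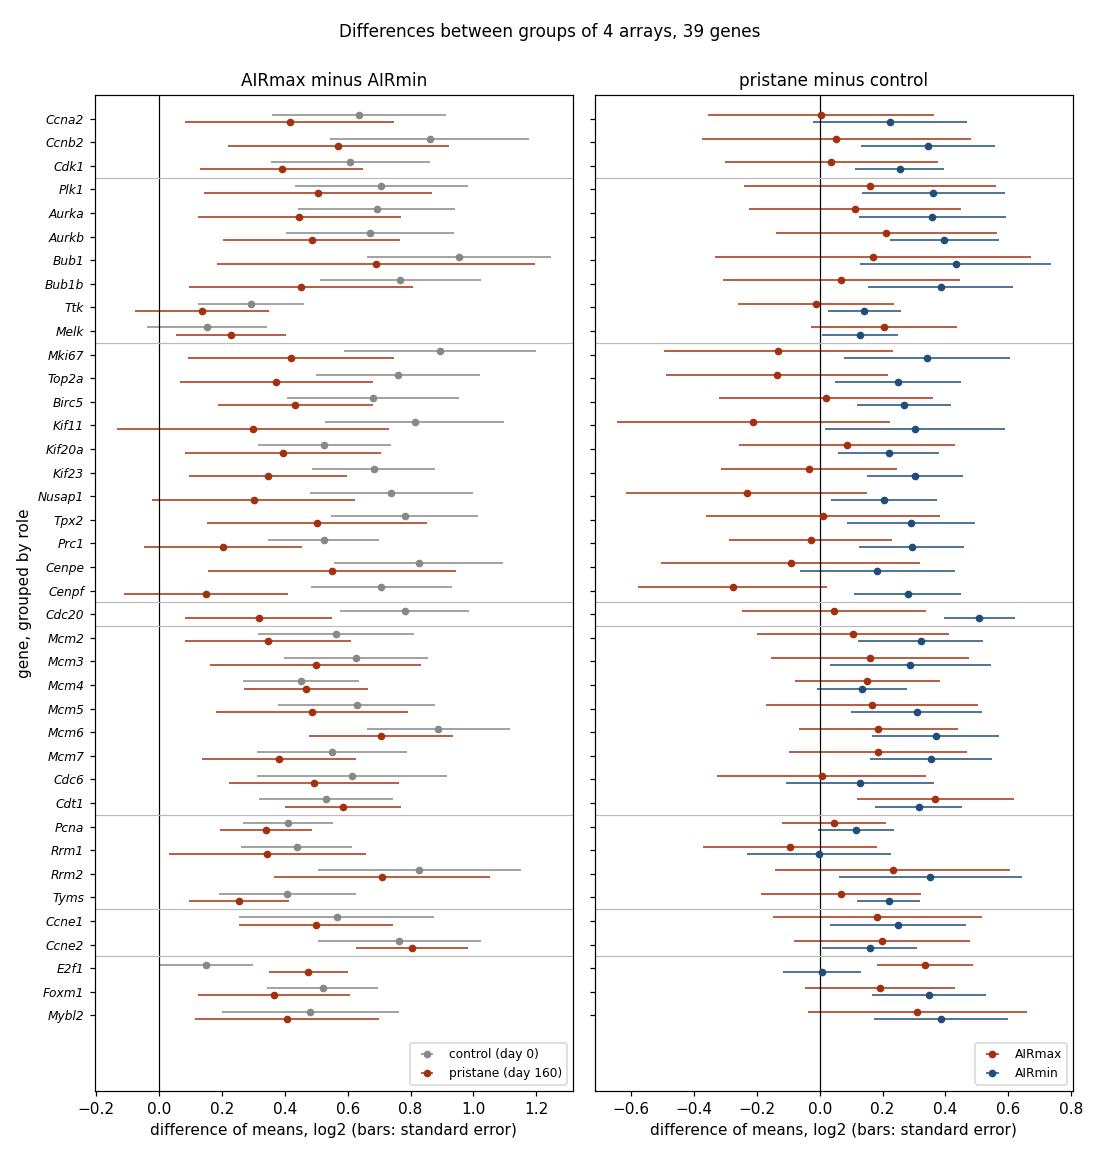
Differences of group means (horizontal axis, log2) with limma standard errors for the 39 genes, grouped by role. Left, AIRmax minus AIRmin in control and pristane footpads, where all points lie above 0; right, pristane minus control in each line, where the AIRmax points lie on both sides of 0 and 38 of 39 AIRmin points above it.

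In AIRmax mice the pristane and control groups differed by -0.28 to 0.37 over the 39 genes, with a median of 0.07 (all genes 0.03). The pristane mean was the higher for 29 genes and the lower for 10 (55.7% of all genes were higher). None passed, where 56 of all genes did (0.281%), and none had an unadjusted p under 0.05 (14.4% of all genes). SAM called 754 of 19938 genes, none of them among the 39. No gene was without overlap (9.39% of all genes). The largest differences were those of Cdt1, 0.37 (SE 0.25, adjusted p = 0.527), and E2f1, 0.33 (SE 0.15, adjusted p = 0.357), and the most negative those of Cenpf, -0.28 (SE 0.30, adjusted p = 0.710), and Nusap1, -0.23 (SE 0.38, adjusted p = 0.815). The licensing factors were higher in 8 of 8 and the chromosome and spindle proteins in 3 of 11. Single arrays set the sign of this comparison. The median was 0.32 without array 108 and 0.29 without 111, and it was -0.07 without 112, -0.05 without 107, -0.04 without 109 and -0.03 without 106. Without arrays 108, 109 and 112 it was -0.13, with 13 genes higher.

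In AIRmin mice 38 of 39 genes had the higher mean in pristane footpads (54.7% of all genes), with a median difference of 0.29 (all genes 0.02). SAM called 416 of 19938 genes, none of them among the 39. None passed in limma, as for all genes (0.0%). At an unadjusted p under 0.05 there were 3 (7.69%, against 5.12% of all genes in this direction), which were Cdc20, Aurkb and Cdt1. Cdc20 went from 6.74 ± 0.21 to 7.24 ± 0.07 (SD, n = 4 arrays), a difference of 0.51 (SE 0.11, adjusted p = 0.116), and was the 1 gene without overlap (3.19% of all genes with pristane higher). Bub1 differed by 0.43 (SE 0.30, adjusted p = 0.617) and Aurkb by 0.40 (SE 0.17, adjusted p = 0.393). At the lower end, E2f1 differed by 0.01 (SE 0.12, adjusted p = 0.986) and Rrm1 by -0.0019 (SE 0.23). The median was 0.12 without array 118 and 0.44 without array 119.

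Whether the lines responded differently was tested as the AIRmax difference minus the AIRmin difference on all 16 arrays. It was below 0 for 34 of 39 genes (51.3% of all genes were above 0), with a median of -0.19 (all genes 0.01), and none passed (0.171% of all genes), none also at an unadjusted p under 0.05 (8.21% of all genes). The largest values in size were those of Cenpf, -0.56 (SE 0.37, adjusted p = 0.765), and Kif11, -0.51 (SE 0.57, adjusted p = 0.896), and the highest was that of E2f1, 0.33 (SE 0.20, adjusted p = 0.730). With array 108 left out the median was 0.03, with 111 left out 0.02. The median standard error of the 39 genes was 0.41, against 0.18 over all genes.

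Females and males, 8 of each and balanced over the groups, were compared with the group in the model. The difference of females minus males lay between -0.19 (Plk1) and 0.07 (Birc5), with a median of -0.07 (all genes 0.01). It was negative for 32 genes (55.3% of all genes were above 0), and none passed (0.105% of all genes), none also at an unadjusted p under 0.05 (4.98% of all genes). Its median was 0.03 without array 111 and -0.19 without array 108.

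The spread within groups was wide for these genes. The pooled within-group SD had a median of 0.451 over the 39 genes and 0.181 over all genes, and 7.19% of all genes reached the median of the 39. All 39 were above the median of all genes. Bub1 (0.715), Kif11 (0.633) and Cenpe (0.580) had the widest spread, and E2f1 (0.208), Pcna (0.220) and Melk (0.296) the narrowest. The width differed by group: the SD of the mean deviation of the 39 genes was 0.53 in AIRmax control, 0.52 in AIRmax pristane, 0.18 in AIRmin control and 0.36 in AIRmin pristane footpads.

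The deviations from the group means went together. Over the 741 pairs of genes the median Pearson r was 0.907 (16 arrays, 12 residual degrees of freedom), and 87.4% of pairs were above 0.8, while the mean r was 0.882 here and 0.004 over pairs of all genes. In the mean over all genes positive and negative r can cancel, so it does not measure how closely other genes go together. The pairs share their arrays and so any difference in the make-up of a footpad sample. Bub1b and Tpx2 had the highest r (0.988) and Cdc20 and E2f1 the lowest (0.422). Against the mean of the other genes, Ccnb2 had 0.988, Ccna2 0.985 and Mcm2 0.984, and at the lower end stood Ccne2 (0.858), Ttk (0.855) and E2f1 (0.650). Among the 22 mitotic genes the median r of a pair was 0.937, among the 17 replication genes 0.897, and between the sets 0.888.

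**Figure D4:**
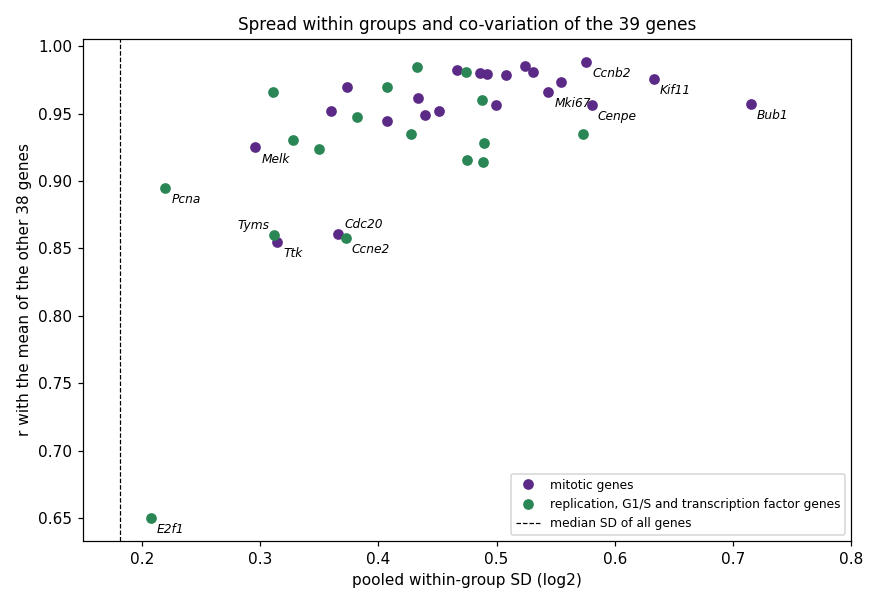
Pooled within-group SD (horizontal axis, log2) and Pearson r with the mean deviation of the other genes (vertical axis) for each of the 39 genes, mitotic genes in purple and the others in green; the dashed line is the median SD of all genes, 0.181. E2f1 stands alone at an r of 0.650, and every gene lies to the right of the line.

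The genes outside the set whose deviations were most like the mean of the 39 (Pearson r over 16 arrays) were Atad2, Spc25, Fen1, Kif2c, Cenpn, Ncaph, Kif15, Tacc3, Wdhd1 and Knl1, with r from 0.986 to 0.983. Of these 10, 9 belong to the lists of other replication and mitosis genes used here (Spc25, Cenpn and Knl1 at the kinetochore, Kif2c and Kif15 as kinesins, Ncaph in condensin, Fen1 in lagging strand synthesis), and Atad2, a chromatin protein, does not. Among the first 100, 59 were on these lists, and E2f8 and Rbl1 on those of G1 factors and pocket proteins.

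Of 55 other genes of DNA replication and repair, 54 had the higher mean in AIRmax control than in AIRmin control footpads (median 0.41), and of 77 other mitosis genes 75 had (median 0.60). None passed. The largest differences were those of the chromatin helicase Hells, 0.97 (SE 0.20, adjusted p = 0.129), the repair helicase Blm (0.90), the chromatin protein Hmgb2 (1.11) and the kinetochore protein Nuf2 (0.996). Of 9 measured CDK inhibitors and pocket proteins 6 were higher in AIRmax control footpads (median 0.17), with Cdkn2d (0.57) and Rbl1 (0.56) the largest, and Cdkn2b lower (-0.43). Of 15 G1 cyclins, kinases and other E2F factors 12 were higher (median 0.19), led by E2f8 (0.85) and Ccnd3 (0.73).

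In pristane footpads 54 of the 55 replication genes (median 0.33) and 74 of the 77 mitosis genes (median 0.35) were higher in AIRmax, none passing. Blm (0.75), the phosphatase Cdc25a (0.65), Depdc1b (0.77) and the shugoshin Sgo2a (0.77) had the largest differences. Cdkn2d (0.58) and Ccnd3 (0.80) were higher and Cdkn2b (-0.54) and Ccnd1 (-0.53), a cyclin of the D type, lower in AIRmax. Averaged over both treatments, 6 replication genes (Hells, Blm, Slbp, Gmnn, Chaf1a and Dnmt1) and 9 mitosis genes (Hmgb2, Sgo2a, Tacc3, Cdca8, Racgap1, Cit, Iqgap3, Espl1 and Nde1) passed. These are 10.9% and 11.7% of the lists, beside 9.46% of all genes called and 4.64% called higher. All were higher in AIRmax, from 0.18 (Nde1, adjusted p = 0.0466) to 0.88 (Hmgb2, adjusted p = 0.0261). The largest in the other lists, Cdkn2d (0.57), Rbl1 (0.50), Ccnd3 (0.76) and E2f8 (0.67), did not pass.

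Between pristane and control footpads no gene of these lists passed in either line. In AIRmax the medians were 0.09 for the replication and 0.02 for the mitosis genes, and the largest differences those of the repair enzyme Ung (0.32), Gins1 (0.31), Ube2t (0.31) and Trip13 (0.31). In AIRmin they were 0.17 and 0.26, led by Hells (0.50), Uhrf1 (0.50), Ccnf (0.60) and Hmgb2 (0.59). The CDK inhibitor Cdkn1c had a difference of -0.38 (SE 0.11, adjusted p = 0.176) in AIRmax and -0.46 (SE 0.12, adjusted p = 0.144) in AIRmin. Cdk6, a kinase of G1, had 0.44 (SE 0.22, adjusted p = 0.396) and 0.58 (SE 0.19, adjusted p = 0.237). The next in size were Cdkn2d (0.35) and E2f3 (0.42) in AIRmax and Cdkn2b (0.36) and Myc (0.47) in AIRmin.

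In the test of the difference between the responses none of these genes passed. Its largest values were those of Orc1 (-0.38), Hells (-0.35), Aspm (-0.61), Fbxo5 (-0.58), Rb1 (-0.34), Cdkn2c (-0.30), E2f5 (0.37) and E2f8 (-0.36). Between females and males none passed either. There the largest were Dtl (-0.16), Wdhd1 (-0.13), Kif18b (-0.17), Cip2a (-0.17), Cdkn2b (-0.20), Cdkn2a (0.14), Cdk6 (0.27) and Mycn (-0.19).

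Markers of other cell types moved with the 39 genes. Elane, Mpo, Prtn3, Ctsg, Ms4a3 and Fcnb are granule and surface genes of granulocyte precursors. Elane had log2 signals of 9.68, 9.54, 9.78 and 11.69 in AIRmax control, 11.68, 8.76, 8.55 and 11.44 in AIRmax pristane, 7.37, 8.59, 6.63 and 9.03 in AIRmin control, and 7.96, 10.67, 7.28 and 9.40 in AIRmin pristane footpads. Arrays 108, 109, 112 and 118, which were among the highest pair of their groups for 38 or 39 of the 39 genes, were the 4 highest arrays of all for Elane. Array 105 was also among the highest pair of its group, for 38 genes, but its Elane signal (9.68) was below that of array 107 (9.78). Array 107 was in that pair for 1 gene. The mean deviation of the 6 markers lay between 0.01 and 2.30 (AIRmax control), -0.63 and 2.29 (AIRmax pristane), -2.52 and -0.11 (AIRmin control) and -1.97 and 1.58 (AIRmin pristane), and the lowest signal of any of the 6 on an AIRmax array was 6.12 (Fcnb, array 111). All 6 were higher in AIRmax control footpads (median difference 2.08, 5 of 6 without overlap, beside 5.39% of all genes) and in AIRmax pristane footpads (median 1.20), none passing. Other lists were also higher in AIRmax control footpads, none passing: 9 of 9 mature neutrophil markers (median 1.84), 10 of 10 erythroid precursor (0.99), 5 of 5 megakaryocyte (0.94) and 6 of 6 T cell markers (0.42). Of 10 macrophage markers 3 were (-0.09). Over both treatments 1 mature neutrophil marker passed (limma adjusted p = 0.0253) and no granulocyte precursor marker.

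With the score of these 6 markers in the model, the median difference of the 39 genes between the lines was 0.08 in control and 0.08 in pristane footpads, in place of 0.64 and 0.42, with 29 and 33 of 39 genes higher in AIRmax. In the AIRmin response it was 0.09 in place of 0.29, and over both treatments 0.09 in place of 0.55. Cdc20 then passed in the AIRmin response (0.50, adjusted p = 0.0471), where 1114 of 19938 genes did. Ccne2 passed in pristane footpads between the lines (0.65, adjusted p = 0.0485), where 595 genes did. None of the 39 passed in the line difference over both treatments, where 270 genes did. In control footpads the score did not overlap between the lines (0.01 to 2.30 in AIRmax, -2.52 to -0.11 in AIRmin). Score and line go together there, so this adjustment cannot tell them apart. The part of granulocyte precursors in these differences was not tested.

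Within groups, Mki67 was set against the first measured gene of each of 12 marker lists, a step added after the values had been seen. P values are two-sided, from 100000 permutations of arrays within groups, adjusted over the 12 relations. For Elane Pearson's r was 0.851 (permutation adjusted p = 0.00256) and Spearman's rho 0.812 (0.00636), with r = 0.868 in AIRmax and 0.844 in AIRmin, and 0.810 without arrays 108 and 109, the farthest from the median of Mki67. For the neutrophil gene S100a8 r was 0.789 (permutation adjusted p = 0.00256) and rho 0.815 (0.00636), with 0.758 without these arrays. For the T cell gene Cd3d r was 0.852 (permutation adjusted p = 0.00256) and rho 0.832 (0.00636), with 0.812 without them, and for the platelet gene Pf4 r was 0.743 (permutation adjusted p = 0.0115) and rho 0.774 (0.00845), with 0.809 without them. The basal keratinocyte gene Krt5, whose cells divide in resting skin, went the other way, with r = -0.667 (permutation adjusted p = 0.0190) and rho = -0.762 (0.00845), and -0.598 without them. Krt1 of differentiated keratinocytes had r = -0.626 (permutation adjusted p = 0.0527) and rho = -0.688 (0.0270), and the red cell gene Rhag r = 0.597 (0.0561) and rho = 0.503 (0.131). Vpreb1, Cd68, Col1a1, Acta1 and Pecam1, of B cell precursors, macrophages, fibroblasts, muscle and endothelium, had r from -0.221 to 0.447, none passing. For some of these r differed between the lines, with -0.0752 in AIRmax and 0.917 in AIRmin for Col1a1, -0.353 and 0.763 for Pecam1, and -0.406 and 0.686 for Cd68, a difference that was not tested.

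The skin and lymphocyte lists give the range behind these values. The 7 basal keratinocyte markers had a mean deviation between -0.64 and 0.12 (AIRmax control), -1.32 and 0.37 (AIRmax pristane), -0.11 and 0.18 (AIRmin control) and 0.05 and 0.59 (AIRmin pristane). Krt5 was at 11.22 on array 108, 11.55 on 109 and 10.55 on 112, and between 11.97 and 12.53 on the other 13. The 6 T cell markers lay between 0.12 and 0.67 (AIRmax control), -0.20 and 0.09 (AIRmax pristane), -0.18 and 0.03 (AIRmin control) and -0.41 and 0.03 (AIRmin pristane), and Cd3d was at 6.94 on array 108 and at most 5.80 elsewhere. Cd3d did not stand for its list. Against the mean deviation of the 39 genes within groups its r was 0.874, and the other T cell markers had 0.490 (Cd4), 0.120 (Cd3g), 0.0451 (Cd8a), -0.388 (Cd3e) and -0.697 (Cd247). Which cells the transcripts of the 39 genes came from was not tested.

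Other tissue markers differed between the lines in pristane footpads, in the comparison where all 39 genes had the higher AIRmax mean. Of 10 macrophage markers 4 passed as higher in AIRmax (median difference of the list 0.90, 7 of 10 without overlap), and of 7 fibroblast markers 2 did (median 1.20, 4 of 7 without overlap). Of all genes 1.36% passed in either direction and 5.04% were higher in AIRmax without overlap. The 10 skeletal muscle markers were lower in AIRmax without overlap (median -1.24), and 1 of them passed. The share of all genes lower without overlap is not given here. In control footpads none of these passed, with medians of -0.09, -0.11 and -0.08. The part of these tissues in the differences of the 39 genes was not tested.

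**Figure D5:**
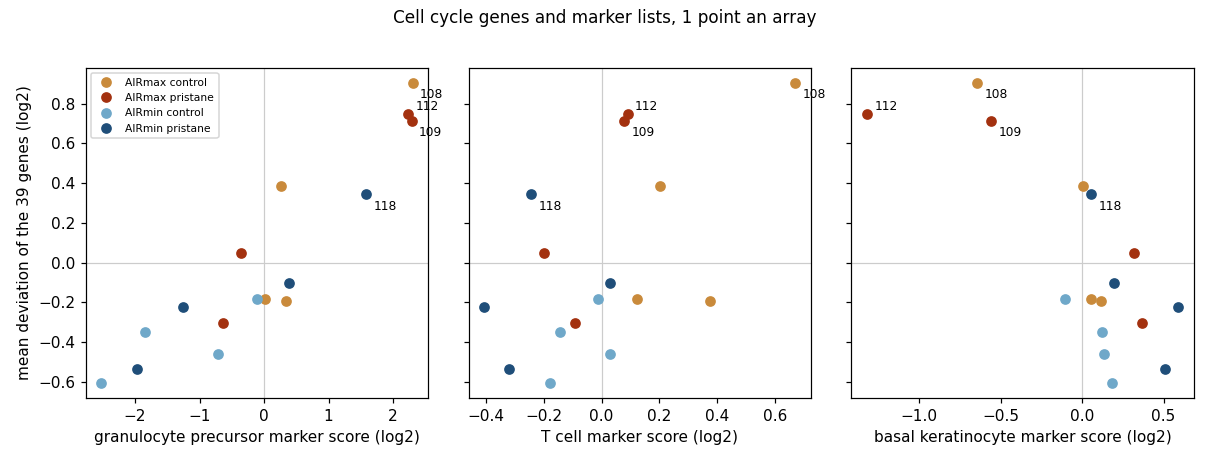
Mean deviation of the 39 genes from their means over 16 arrays (vertical axis, log2) against the mean deviation of the granulocyte precursor, T cell and basal keratinocyte markers (horizontal axes, log2), 1 point an array and coloured by group. Arrays 108, 109 and 112 lie at the top, at granulocyte precursor scores of 2.30, 2.29 and 2.23 and with low keratinocyte scores.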

How the data were processed

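Footpad RNA was measured on 16 arrays (Affymetrix Mouse Gene 1.0 ST) in 4 groups of 4. The log2 signals per probe set were used as deposited. Per the labels they come from RMA at the gene level, and the submitters' processing notes name MAS5, with versions not given in the sources used here. RMA gives all arrays nearly the same distribution (array medians 5.435 to 5.53), so a shift shared by most genes would not be seen. Of 35556 probe sets, 21789 named 1 gene. Each of 19938 genes was represented by its brightest probe set on average. Probe sets naming several genes (1621) or none (12146) were left out.

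Comparisons of 2 groups were fitted with limma 3.58.1 (lmFit and eBayes, R 4.3.3) on their 8 arrays. The difference of responses, the sex difference (group in the model) and the line difference over both treatments used all 16. Benjamini-Hochberg adjusted p values cover all genes, with a threshold of 0.05. The study's test, SAM, was written anew as an alternative. Other alternatives were averaged probe sets of a gene, every annotated probe set, genes above the median signal, arrays standardized as in the study, further quantile normalization, a single fit of all 16 arrays, a covariate (sex or the granulocyte precursor score), a trended robust prior, and each array left out in turn. The line difference over both treatments, the joint removal of arrays 108, 109, 112 and 118 (those with the highest granulocyte precursor scores) and the relations of Mki67 to marker genes were added after the values were seen. All fits were checked on simulated data.

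For a list, the score on an array is its genes' average distance from their own 16-array means. Spread and co-variation use deviations from group means. The 40 genes and the 24 lists of roles, pathways and markers were chosen with earlier results of these data known. By the naming rule, values on every array are given for Mki67, the genes called in any comparison, the 2 strongest changes up and down in each comparison of groups, and the 3 widest and 3 narrowest spreads. Promoters (RefSeq GRCm38.p6) are shown for the 4 mitotic and 3 replication genes most like the rest among those with an entry. Arrays count no reads, so their number limits the precision. Python 3.11.15 with numpy 2.4.6, pandas 2.3.3, scipy 1.17.1 and matplotlib 3.10.9 was used.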

Additional observations from a re-analysis of the deposited data

Results flagged for a closer look

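In 3 of 156 groups of 4 arrays (39 genes in 4 groups, 1.92%), 1 array stood apart from the other 3 by Dixon's ratio of its gap to the range of the group, where chance gives about 1 group in 20. Melk on array 119, an AIRmin pristane female, was lowest at 6.12, with the other 3 between 6.48 and 6.49 (ratio 0.961). Pcna on array 118, an AIRmin pristane male, was highest at 9.60, with the others between 9.18 and 9.23 (ratio 0.875). E2f1 on array 113, an AIRmin control male, was lowest at 5.84, with the others between 6.14 and 6.19 (ratio 0.869). Arrays 118 and 119 were also the highest and the lowest of their group for 36 and 34 of the 39 genes, while array 113 was lowest for E2f1 alone. Why these arrays stood apart was not tested.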

How the results depend on the processing

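The number of the 39 genes called stayed within 1.5 times its value in 130 of 151 alternatives. In all comparisons but the line difference over both treatments that value was 0, so to stay there means only that no gene was called. The 130 therefore say little about how stable a count above 0 is. The count of 0 for AIRmin pristane against control became 1 with the granulocyte precursor score as a covariate (Cdc20), where 1114 of all genes were called. The count of 0 between the lines in pristane footpads became 2 with SAM (Ccne2 and E2f1), which called 1016 of all genes. It became 1 with the precursor score (Ccne2), where 595 of all genes were called. It lay between 0 and 1 when each array was left out in turn (1 without array 110 or 118). The count of 4 in the line difference over both treatments became 0 with the precursor score and 2 without arrays 108, 109, 112 and 118, and lay between 2 and 25 when each array was left out in turn. The cause was not tested. The counts of 0 in the other comparisons were the same in all alternatives run. The median difference of the 39 genes moved by more than the SD of their mean deviation (0.421) in 2 of 151 alternatives, both with the precursor score, to 0.0828 between the lines in control footpads and to 0.0859 over both treatments. No called gene changed its sign, and 30 of 1125 values of single genes changed sign with neither value called. The median difference of all genes was at most 0.0376 in size under any alternative, a value from the fit of genes above the median signal only. Since the deposited arrays already share nearly the same distribution, a small median of all genes says little about normalization. No paired analysis was possible because the groups share no replicate numbers. Each comparison has 4 arrays a group, 1 tissue sample of mixed cells for each. The standard errors for the 39 genes had a median of 0.20 to 0.41 on the log2 scale. Differences well above that size could fail to pass, as did the largest between the lines in control footpads, 0.95.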

Other observations

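Genes with deviations opposite to those of the 39 cell cycle genes were looked up after the values were seen. The most negative Pearson r with their mean deviation over the 16 arrays were those of Nfe2l1 (-0.973), a transcription factor of the proteasome genes, and Jun (-0.973), a part of AP-1, which is induced early by growth factors and stress. These are descriptions over arrays that share their tissue make-up, and what lies behind them was not tested.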
